A study of Mus musculus with 14 samples.

Results

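The 10 genes described here act in mitochondrial fusion, fission and mitophagy: Opa1, Mfn1, Mfn2, Dnm1l, Fis1, Mff, Pink1, Bnip3, Bnip3l and Fundc1. They were chosen by name for these roles, out of 35275 genes in the table. All 10 were matched to an Ensembl identifier and all 10 passed the filter on low values, among 13079 genes tested.

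The samples were brown adipose tissue from 8-week-old C57BL/6 mice, 1 RNA-seq library per animal. All animals carried floxed Lrpprc alleles (LrpprcFF). Lrpprc encodes an RNA-binding protein that stabilises the messenger RNAs made from mitochondrial DNA. Controls were LrpprcFF without Cre, and knockouts were LrpprcFF Ucp1-Cre, in which the promoter of Ucp1, a gene of brown and beige adipocytes, drives the recombinase. Animals were housed at room temperature (22 °C), with 4 controls and 4 knockouts, or at thermoneutrality (30 °C), with 3 controls and 3 knockouts. The identifiers of controls 3 and 4 at 22 °C began with R and those of all other animals with E; what the letters mark is not given in the sources used here. RNA came from homogenised tissue although the labels give brown adipocytes, so other cell types were included. In such bulk samples fewer cells of a type and less RNA per cell cannot be told apart.

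Mitochondria form a network that is remodelled by fusion and division. MFN1 and MFN2 are GTPases that join the outer membranes, and OPA1 is the GTPase that joins the inner membranes and shapes the cristae. DRP1, the product of Dnm1l, is a GTPase recruited from the cytosol to the outer membrane, where it constricts and divides the organelle. MFF and FIS1 sit in the outer membrane, and MFF is a main receptor for DRP1. Mitophagy is the removal of mitochondria by autophagy. The kinase PINK1 accumulates on mitochondria that cannot import it and starts their ubiquitin tagging by Parkin, whereas BNIP3, NIX (the product of Bnip3l) and FUNDC1 are outer-membrane receptors that bind the autophagosome protein LC3 directly. Bnip3 is known as a target of hypoxia-inducible factor. In brown fat, cold activates heat production and is known to bring about division of mitochondria, and return to warmth is known to bring about mitophagy.

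The promoter windows of 2 members that the results turn on are shown for context. Each is the 250 bases upstream of the RefSeq start on GRCm38.p6, read on the strand of the gene. RefSeq promoters matched 9 of the 10 members, with Bnip3l the exception. In the Bnip3 window (chr7:138909507-138909756, minus strand) the capitals mark CACGTG, a palindromic E-box that holds the hypoxia response core ACGTG on both strands. In the Opa1 window (chr16:29579084-29579333, plus strand) they mark 3 overlapping matches, on both strands, to GCGCATG, the core of the motif of NRF1, a transcription factor of nuclear genes for mitochondrial proteins.
Bnip3: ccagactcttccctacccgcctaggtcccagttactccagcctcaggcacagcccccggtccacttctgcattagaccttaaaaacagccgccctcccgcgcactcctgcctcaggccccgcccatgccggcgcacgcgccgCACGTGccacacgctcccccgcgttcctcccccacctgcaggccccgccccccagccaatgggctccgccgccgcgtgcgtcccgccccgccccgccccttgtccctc
Opa1: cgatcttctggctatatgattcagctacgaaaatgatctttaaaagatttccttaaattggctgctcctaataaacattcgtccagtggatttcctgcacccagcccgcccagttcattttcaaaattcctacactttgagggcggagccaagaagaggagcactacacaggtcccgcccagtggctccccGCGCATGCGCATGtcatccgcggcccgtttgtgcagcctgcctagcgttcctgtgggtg
Among 27025 RefSeq promoter windows of this length, 16.6% held ACGTG, 6.05% held CACGTG and 3.32% held GCGCATG on either strand. The Bnip3 window also held 6 matches to the GC box GGGCGG, which 32.9% of all windows held, and its GC content was 72.4%. ACGTG had no match in the windows of the other 8 members, and GCGCATG none outside Opa1. These are matches of letters, and binding was not measured.

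Levels are given as FPKM, fragments per kilobase of transcript, relative to library depth, divided by a library factor that sets the median nuclear gene equal across libraries (scaled FPKM). Transcripts of mitochondrial DNA took 11.9 to 17.3% of the total in controls and 1.01 to 2.78% in knockouts. This share was taken over FPKM multiplied by the length of the longest transcript, which approximates fragments. Without the factor, the median gene stood higher in knockouts by 0.24 (22 °C) or 0.31 (30 °C) on the log2 scale. With nuclear genes scaled to an equal total instead, it still stood higher, by 0.12 and 0.19. Depth was 15.9 to 21.3 M fragments per library. Lrpprc, the deleted gene, averaged 30.8% of the control FPKM as deposited at 22 °C and 27.0% at 30 °C. Its groups did not overlap at either temperature (two-sided exact permutation p = 0.0286 and p = 0.1, the smallest possible with 4 against 4 and 3 against 3). The 10 brown adipocyte markers summed to 19065 to 25097 scaled FPKM in controls and 14741 to 19304 in knockouts at 22 °C. At 30 °C they summed to 14286 to 17781 in controls and 7835 to 9579 in knockouts. Ucp1, which is among them, averaged 2114 in controls and 2067 in knockouts at 22 °C, and 806 and 317 at 30 °C. The 13 macrophage markers summed to 74.8 to 114, 123 to 265, 157 to 543 and 799 to 2394 in the same order of groups. The 14 skeletal muscle markers varied most within groups, from 41.8 to 16242 among the 30 °C controls. No marker of the brown adipocyte, macrophage, erythroid or endothelial lists was at 0 throughout a group, and 1 muscle marker was at 0 in all knockouts at 22 °C.

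**Figure D1:**
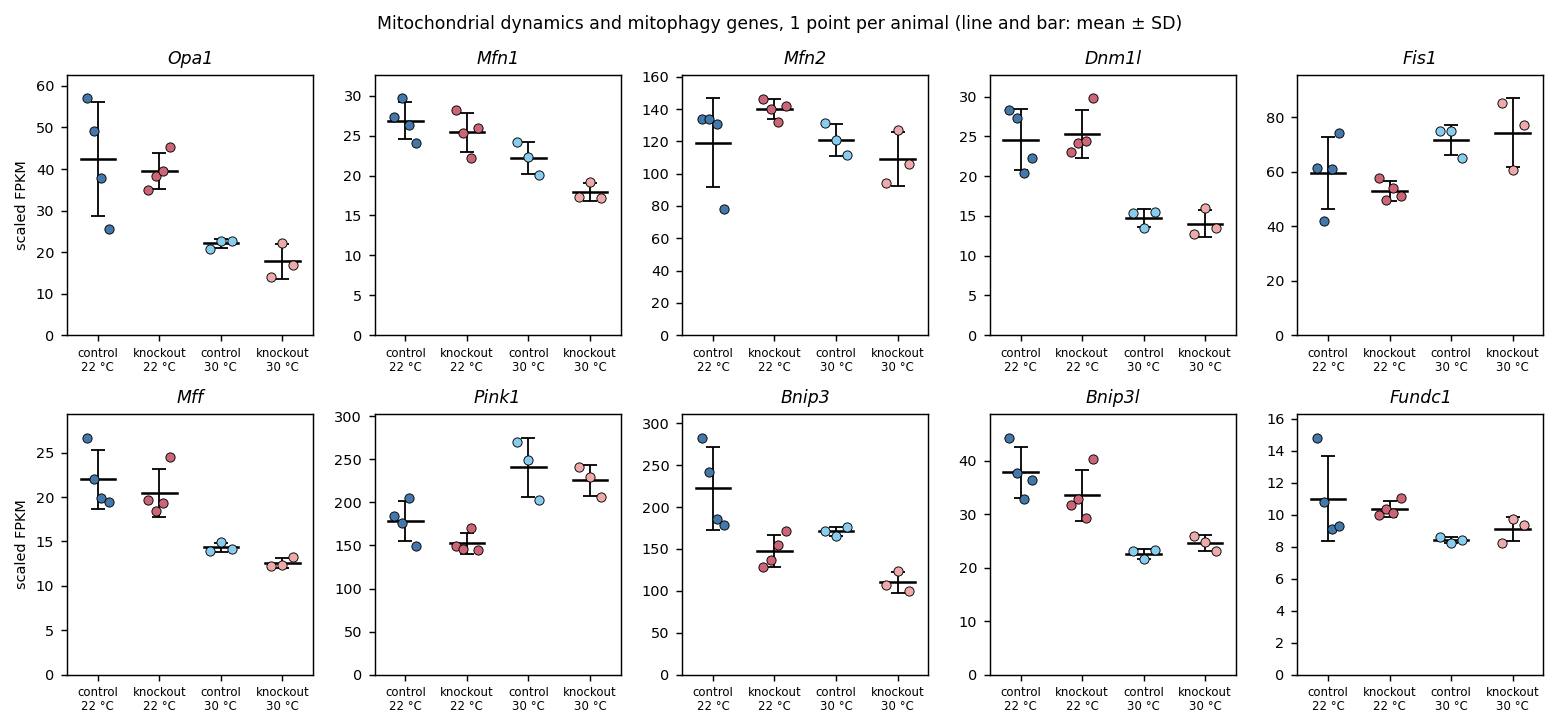
Scaled FPKM (vertical axes, each from 0) of the 10 members in each group of genotype and housing temperature. Points are animals, lines are group means and bars are SD, with n = 4 at 22 °C and n = 3 at 30 °C. Bnip3 points of the knockouts lie below all control points of the same temperature, and Opa1, Dnm1l, Mff and Bnip3l points at 22 °C lie above those at 30 °C within each genotype.

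The members spanned a wide range of levels. In the 22 °C controls Bnip3 was the highest at 222 ± 49.2 scaled FPKM (mean ± SD, n = 4), followed by Pink1 at 179 ± 23.3, whose range overlapped that of Bnip3, and by Mfn2 at 119 ± 27.6. Fis1 (59.5 ± 13.2), Opa1 (42.4 ± 13.7) and Bnip3l (37.8 ± 4.81) formed a middle group in which each neighbour overlapped the next. Mfn1 (26.8 ± 2.33), Dnm1l (24.6 ± 3.83) and Mff (22.0 ± 3.32) came next, again with overlapping neighbours. Fundc1 was the lowest at 11.02 ± 2.66 and did not overlap Mff. Pink1 had the highest mean in the other 3 groups, overlapping Bnip3 in the 22 °C knockouts, and Fundc1 the lowest in all 4. In 30 °C knockouts Pink1 stood at 226 ± 17.8 (n = 3), clear of Bnip3 at 110 ± 12.3, which overlapped Mfn2 at 109 ± 16.6. Counting error is small at these levels, since even Fundc1 had about 290 to 496 fragments per library, estimated from its longest transcript.

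The first question was whether loss of Lrpprc in brown adipocytes went with a change in these genes at 22 °C. No member passed the test (limma moderated test with Benjamini-Hochberg adjustment over all 13079 genes, adjusted p under 0.05). Of all genes tested, 1.97% were called. At an unadjusted p under 0.05 the count was 1 of 10, beside 2060 of 13079 genes, and the same gene, Bnip3, was the only member with groups that did not overlap, against 9.38% of all genes. The median log2 fold change of the members was -0.088, beside 0.0024 for all genes.

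Bnip3, the mitophagy receptor, read 283, 241, 186 and 179 scaled FPKM in the 22 °C controls and 128, 137, 155 and 171 in the knockouts. Every knockout lay below every control, with a narrow gap between 171 and 179. The log2 fold change was -0.57 (SE 0.15, 95% confidence interval -0.88 to -0.26), and limma's adjusted p was 0.066. The controls with R identifiers were the 2 lower ones. Without both of them the log2 fold change was -0.83 and limma's adjusted p 0.012, and without control 4 alone it was -0.67 with an adjusted p of 0.0487. As deposited, without the library factor, the groups overlapped and the log2 fold change was -0.27. The median gene then stood at 0.24, and setting Bnip3 against it repeats the scaling by the library factor.

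At 30 °C Bnip3 was the member that passed. It read 172, 165 and 176 scaled FPKM in controls and 107, 124 and 99.4 in knockouts, without overlap. The log2 fold change was -0.63 (SE 0.17, 95% confidence interval -0.997 to -0.27), a level 0.644 times that of controls, with limma's adjusted p of 0.0247. In this comparison 14.1% of all genes were called and 5.28% were called lower. FPKM as deposited did not overlap either, but the log2 fold change was -0.34 and the call was lost (adjusted p = 0.0945). Quantile normalization (adjusted p = 0.0686) and scaling nuclear genes to an equal total (adjusted p = 0.0675) also ended the call. So did leaving out any of the 3 controls, knockout 1 or knockout 3, with adjusted p from 0.0645 to 0.102. Across all 29 settings the log2 fold change stayed between -0.34 and -0.72. The call was lost in 3 alternatives of scaling and in 5 of the 14 fits that left out an animal. The difference between the effects at 22 °C and 30 °C was 0.07 (95% confidence interval -0.41 to 0.55), and limma's adjusted p for it was 0.935. The summed brown adipocyte markers were lower in the same knockouts, and the part of cell composition in the Bnip3 difference was not tested.

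The ratio of Bnip3 to its paralogue Bnip3l within a library needs no library factor. It was 5.84 ± 0.70 in 22 °C controls, 4.44 ± 0.58 in 22 °C knockouts, 7.56 ± 0.12 in 30 °C controls and 4.48 ± 0.45 in 30 °C knockouts (mean ± SD). At 30 °C the control ratios of 7.43, 7.66 and 7.58 stood apart from the knockout ratios of 4.13, 4.99 and 4.32. At 22 °C the groups overlapped, since control 4 had 4.93 and knockout 3 had 5.30. Bnip3 and Bnip3l have near-identical copies elsewhere in the genome. The annotated gene Gm16439 matched Bnip3 at 98.9% over 564 bases and reached 5.28 FPKM, and the pseudogene Bnip3l-ps matched Bnip3l at 99.2% over 663 bases and reached 1.08 FPKM. How the authors' counting shared reads among such copies is not given in the sources used here.

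**Figure D2:**
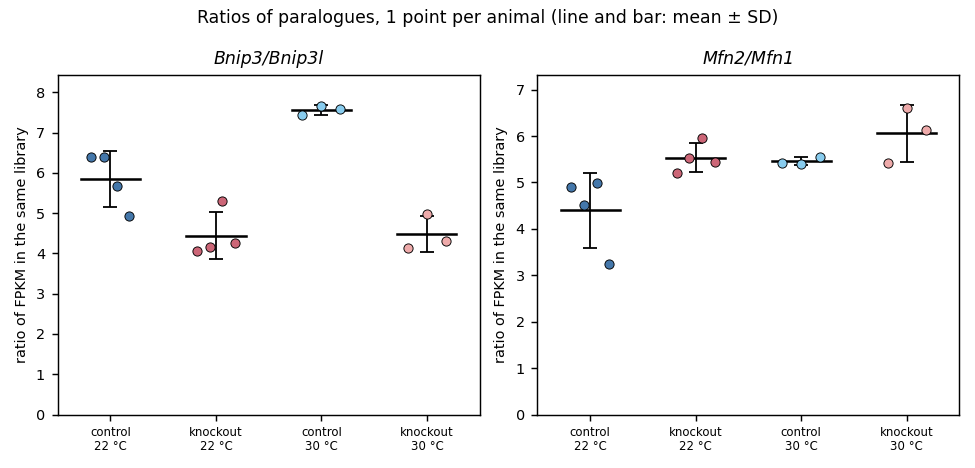
Ratio of FPKM within the same library (vertical axes, from 0) for Bnip3 over Bnip3l and for Mfn2 over Mfn1, by group. Points are animals, lines are means and bars are SD. At 30 °C the 3 control ratios of Bnip3 to Bnip3l lie between 7.43 and 7.66, above the knockouts at 4.13 to 4.99.

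The fusion genes did not pass in either knockout comparison. Mfn1 had the lowest adjusted p among them at 30 °C, reading 24.2, 22.3 and 20.1 in controls and 17.4, 19.2 and 17.2 in knockouts. These did not overlap, yet the log2 fold change of -0.29 (95% confidence interval -0.53 to -0.05) had a limma adjusted p of 0.103. At 30 °C, 3 members had groups that did not overlap (Mfn1, Mff and Bnip3), against 36.8% of all genes, so non-overlap of 3 against 3 was common in this comparison. Mfn2 at 22 °C read 134, 134, 131 and 77.9 in controls and 146, 140.0, 132 and 142 in knockouts. Control 4 was the exception in an otherwise narrow spread. The log2 fold change of 0.26 (95% confidence interval -0.08 to 0.61) did not pass (limma adjusted p = 0.458). The ratio of Mfn2 to Mfn1 was 4.40 ± 0.81 in controls and 5.53 ± 0.31 in knockouts at 22 °C, without overlap, and 5.46 ± 0.08 against 6.05 ± 0.60 at 30 °C, with overlap. Opa1 at 22 °C had a log2 fold change of -0.04 between genotypes, with a wide interval of -0.48 to 0.40. Across all 29 settings the value ran from -0.42, without both R controls, to 0.26, with FPKM as deposited. None of these settings called it. At 30 °C its log2 fold change was -0.32 (-0.83 to 0.19).

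For the fission genes the knockout differences were small and did not pass. The log2 fold changes of Dnm1l were 0.05 (95% confidence interval -0.21 to 0.31) at 22 °C and -0.07 (-0.37 to 0.23) at 30 °C. Those of Mff were -0.10 (-0.34 to 0.14) and -0.18 (-0.45 to 0.10), and those of Fis1 were -0.14 (-0.47 to 0.19) and 0.04 (-0.34 to 0.42). Among the other mitophagy genes, Pink1 had -0.22 (-0.48 to 0.04) and -0.09 (-0.38 to 0.21), Bnip3l had -0.17 (-0.41 to 0.07) and 0.11 (-0.16 to 0.39), and Fundc1 had -0.06 (-0.32 to 0.21) and 0.10 (-0.21 to 0.41). All these intervals include 0, and their outermost bounds were -0.48 and 0.42. The median over the 10 members at 30 °C was -0.12, beside 0.065 for all genes. No member passed in the test of the difference between the 2 knockout effects (0 of 10 at an unadjusted p under 0.05). Of all genes, 0% were called there by limma, with 1694 at an unadjusted p under 0.05.

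Without the library factor the direction of most small knockout differences turned. With FPKM as deposited, 7 of the 9 members other than Bnip3 stood higher in knockouts at 22 °C where the scaled values were lower, and limma then called Mfn2 (0.57) and Dnm1l (0.34). At 30 °C it called Bnip3l (0.40) and Fundc1 (0.37). All genes moved the same way, from 258 called (119 higher, 139 lower) to 3248 (3167 higher, 81 lower) at 22 °C, and from 1845 (1154 higher, 691 lower) to 4571 (4280 higher, 291 lower) at 30 °C. With nuclear genes scaled to an equal total the calls were 386 higher and 75 lower at 22 °C and 2225 higher and 409 lower at 30 °C. With quantile normalization they were 887 higher and 935 lower at 30 °C.

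**Figure D3:**
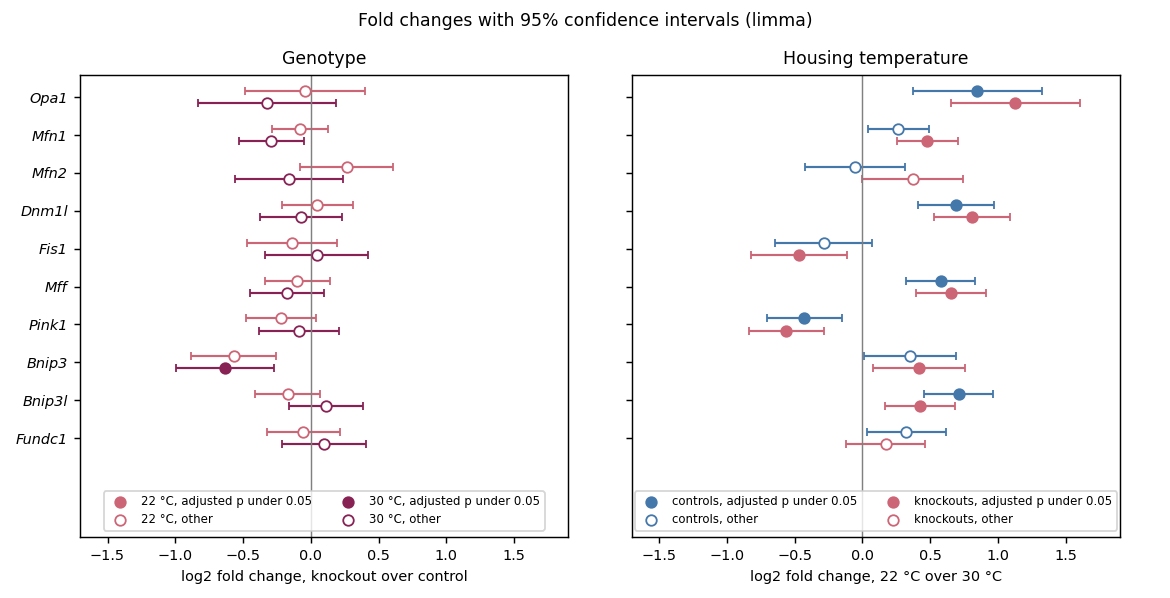
Log2 fold changes of the 10 members with 95% confidence intervals from limma, for knockout over control at 22 °C and 30 °C (left) and for 22 °C over 30 °C in controls and knockouts (right). Filled points had an adjusted p under 0.05. On the left only Bnip3 at 30 °C is filled, and on the right 5 members are filled in controls and 8 in knockouts.

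The second question was how the members differed between housing temperatures within a genotype. The animals at the 2 temperatures also differed in sex-linked transcripts. Xist, which is transcribed from the inactive X chromosome of females, was at 9.01 to 18.4 FPKM in all 6 animals at 30 °C and at most 0.0141 in the 8 at 22 °C. Ddx3y, a Y-linked gene, was at 14.5 to 23.1 FPKM at 22 °C and at most 0.0244 at 30 °C. Temperature and this difference in sex-linked expression therefore cannot be told apart in any comparison between temperatures below. The same holds for the differences between the knockout effects at 22 °C and 30 °C given above. Across genes, the size of the temperature difference went with transcript GC content, with a Spearman rho of -0.58 in controls and -0.49 in knockouts over 13014 genes, which share the same libraries. The knockout comparisons had rho of 0.066 and 0.12.

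In controls, 5 members were called. Opa1, Dnm1l, Mff and Bnip3l were higher at 22 °C, where 18.2% of all genes were called higher, and Pink1 was lower, where 20.6% were called lower. In all, 38.8% of genes were called. In knockouts, 8 members were called. Opa1, Mfn1, Dnm1l, Mff, Bnip3 and Bnip3l were higher, with 21.8% of all genes called higher, and Fis1 and Pink1 were lower, with 29.4% called lower, of 51.1% called in all. Groups did not overlap for 6 members in controls and for all 10 in knockouts, against 43.5% and 55.8% of all genes. The members' median log2 fold change was 0.34 in controls and 0.42 in knockouts, beside -0.051 and -0.072 for all genes.

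Opa1, the inner-membrane fusion GTPase, showed the largest temperature difference among the members in both genotypes. It read 57.0, 49.0, 37.8 and 25.5 scaled FPKM in 22 °C controls and 20.9, 22.7 and 22.7 in 30 °C controls. In knockouts it read 35.0, 38.4, 39.5 and 45.3 at 22 °C and 14.1, 22.3 and 16.96 at 30 °C. All animals at 22 °C were above all at 30 °C, though control 4 at 22 °C came close. The log2 fold change was 0.85 in controls (SE 0.22, limma adjusted p = 0.00977) and 1.13 in knockouts (SE 0.22, limma adjusted p = 0.00118). After the values were corrected for transcript GC content it was 0.63 (adjusted p = 0.0438) and 0.94 (adjusted p = 0.0035).

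The mitofusins moved less. Mfn1 was called in knockouts (0.48, limma adjusted p = 0.00233) and not in controls (0.26, limma adjusted p = 0.0603). Leaving out control 4 at 22 °C gave 0.31 and a limma adjusted p of 0.028 in controls. Mfn2 was not called in controls (-0.05) or knockouts (0.37, 95% confidence interval -0.0019 to 0.74, limma adjusted p = 0.0882). In knockouts Mfn2 passed in 7 of 29 settings, among them the GC correction, at 0.64. It also passed on leaving out control 4 at 22 °C (0.37, adjusted p = 0.00874) or knockout 2 at 30 °C (0.48, adjusted p = 0.0496). In controls its direction turned with the GC correction, to 0.10.

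The fission genes split. Dnm1l, which encodes the dividing GTPase, read 28.3, 27.3, 20.4 and 22.3 in controls and 23.0, 24.2, 24.4 and 29.8 in knockouts at 22 °C. At 30 °C it read 15.3, 13.5 and 15.4 in controls and 12.7, 15.9 and 13.4 in knockouts, so the temperatures did not overlap. The log2 fold changes were 0.69 (limma adjusted p = 0.002) and 0.81 (limma adjusted p = 0.000367). Mff, its receptor, read 19.5 to 26.7 in controls and 18.4 to 24.5 in knockouts at 22 °C, and 13.95 to 14.9 and 12.2 to 13.2 at 30 °C. Its log2 fold changes were 0.58 (limma adjusted p = 0.00314) and 0.65 (limma adjusted p = 0.000766). Fis1 went the other way. It read 42.0 to 74.0 in controls and 49.4 to 57.8 in knockouts at 22 °C, and 65.1 to 74.7 and 60.5 to 85.3 at 30 °C. The log2 fold changes were -0.29 (not called, limma adjusted p = 0.183) and -0.47 (limma adjusted p = 0.0304). The Fis1 call was lost on leaving out knockout 2 or 4 at 22 °C or knockout 1 or 3 at 30 °C, with adjusted p from 0.0657 to 0.133. It was also lost in 4 of 14 other settings, among them the GC correction, with adjusted p up to 0.59. The ratio of Dnm1l to Mff within a library stayed between 0.90 and 1.32 in all 14 animals.

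Among the mitophagy genes, Pink1 was lower at 22 °C. It read 185, 176, 205 and 149 in controls and 149.6, 146, 170.2 and 145 in knockouts at 22 °C, and 271, 248.9 and 203 in controls and 241, 230.0 and 206 in knockouts at 30 °C. The control ranges overlapped by a narrow margin, at 203 and 205, and the knockout ranges did not overlap. The log2 fold changes were -0.43 (limma adjusted p = 0.0198) and -0.56 (limma adjusted p = 0.00308). The control call was lost without control 1 (-0.34, adjusted p = 0.092) or control 2 (-0.40, adjusted p = 0.0691) at 30 °C. With the GC correction the log2 fold changes were -0.07 and 0.13, and neither passed. The skeletal muscle markers summed to 16242 in control 1, 5588 in control 2 and 41.8 in control 3 at 30 °C, the same order as Pink1. In the 30 °C knockouts they summed to 10392, 2471 and 7975, an order other than that of Pink1, and control 4 at 22 °C had 4804 with the lowest Pink1 of its group. With a muscle score as covariate, Pink1 had -0.43 (adjusted p = 0.0144) and -0.48 (adjusted p = 0.0113). The part of skeletal muscle in the Pink1 values was not tested.

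The receptors were higher at 22 °C where they were called. Bnip3l read 44.3, 37.8, 32.8 and 36.3 in controls and 31.6, 32.9, 29.2 and 40.2 in knockouts at 22 °C, and 23.1, 21.5 and 23.2 in controls and 25.9, 24.8 and 23.0 in knockouts at 30 °C. No animal at 22 °C overlapped those at 30 °C of its genotype. The log2 fold changes were 0.71 (limma adjusted p = 0.00111) and 0.42 (limma adjusted p = 0.00976), and the difference between them was not called (limma adjusted p = 0.512). NIX is abundant in maturing red cells, and the erythroid markers summed to 535 to 1688 in controls and 438 to 1383 in knockouts at 22 °C, and to 507 to 938 and 378 to 608 at 30 °C. The part of these cells in the Bnip3l values was not tested. Bnip3 was called in knockouts (0.42, limma adjusted p = 0.0394) and not in controls (0.35, limma adjusted p = 0.0902). The knockout call was lost on leaving out knockout 3 or 4 at 22 °C, control 1 or 2 at 30 °C, or knockout 1 or 3 at 30 °C (adjusted p from 0.0501 to 0.142). It was also lost in 6 of 14 other settings, down to 0.20 with the GC correction (adjusted p = 0.236). In controls it passed without control 4 at 22 °C (0.45, adjusted p = 0.0323). Fundc1, which lies on the X chromosome, had 0.33 in controls (limma adjusted p = 0.0714) and 0.17 in knockouts (limma adjusted p = 0.295). It passed in controls without control 3 (0.40, adjusted p = 0.0361) or control 4 (0.39, adjusted p = 0.0354) at 22 °C.

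The members called higher at 22 °C had transcripts of low GC content, and those called lower had high GC content. The longest transcripts had a GC content of 37.3% in Mff, 38.8% in Fundc1, 40.9% in Dnm1l, 41.6% in Bnip3, 41.9% in Bnip3l, 43.5% in Opa1 and 45.9% in Mfn1. They had 53.1% in Mfn2, 54.4% in Fis1 and 59.0% in Pink1, where the median over tested genes was 50.1%. With the GC correction, 3 members stayed called in controls, namely Opa1, Dnm1l (0.40) and Bnip3l (0.44). In knockouts 5 were called, namely Opa1, Mfn1 (0.38), Mfn2 (0.64), Dnm1l (0.58) and Mff (0.40). Fis1 then stood at -0.09 in controls and -0.10 in knockouts. Whether the GC dependence came from library preparation was not tested.

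**Figure D4:**
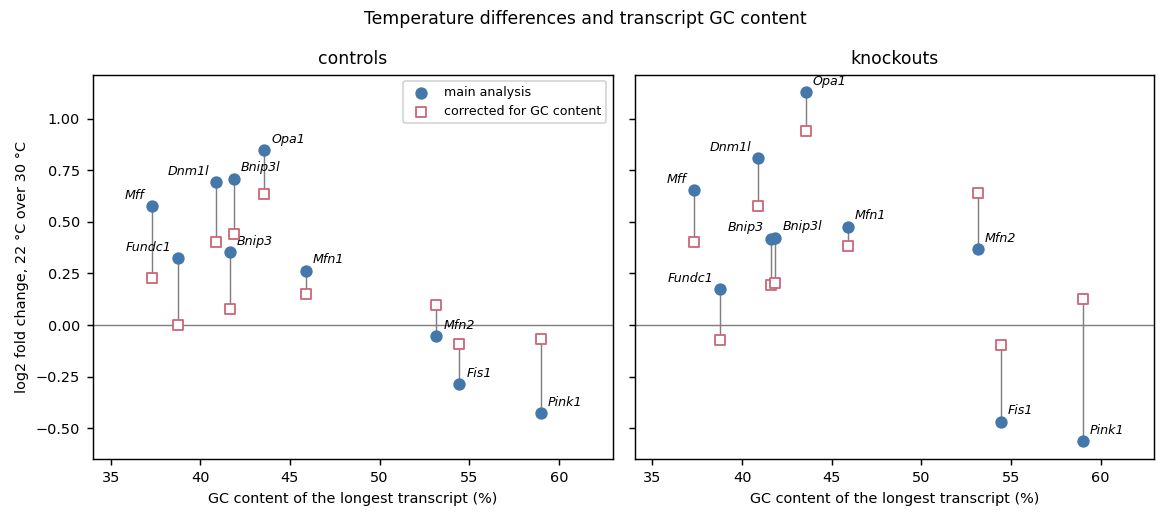
Log2 fold change of 22 °C over 30 °C (vertical axis) against the GC content of the longest transcript in percent (horizontal axis) for the 10 members, in controls and in knockouts. Circles are the values without and squares the values with a correction for GC content. Pink1, at 59.0% GC, moves from -0.56 to 0.13 in knockouts, and Opa1 from 1.13 to 0.94.

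Of 85 other listed genes of mitochondrial dynamics and mitophagy, 81 were tested, and Miga1, Mtfr2, Gdap1 and Calcoco2 were not. At 22 °C, 3 of the 81 were called between genotypes, beside 1.97% of all genes, and their median log2 fold change was 0.0018, beside 0.0024 for all genes. Sqstm1, which encodes the autophagy adaptor p62, was higher in knockouts, at 358, 246, 141 and 179 against 85.6, 95.5, 111 and 78.9 scaled FPKM in controls. Its log2 fold change was 1.23 (limma adjusted p = 0.0218), and the call was lost without control 1, 2 or 4 or knockout 2 (adjusted p from 0.0502 to 0.0797). It was also lost without a filter, in the fit to the 2 groups alone and without both R controls (adjusted p from 0.0529 to 0.0805). Macrophages also express Sqstm1, and the macrophage markers given above were higher in the same knockouts; their part in its level was not tested. Tomm7, a subunit of the outer-membrane import complex that helps to hold PINK1 there, was lower by a log2 fold change of -0.49 (limma adjusted p = 0.02). Fundc2, a paralogue of Fundc1, was lower by -0.46 (limma adjusted p = 0.0323). Tomm7 lost its call without control 1 or 2 or knockout 2 (adjusted p from 0.0593 to 0.0797), and in 3 other settings, among them FPKM as deposited (-0.19, adjusted p = 0.112). Fundc2 lost it in 8 of the 14 fits that left out an animal and in 7 of 14 other settings, with adjusted p up to 0.226.

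At 30 °C, 15 of the 81 were called, 1 higher and 14 lower, with a median of -0.089. Among all genes 14.1% were called and 5.28% called lower, with a median of 0.065. The overall share called was thus near that of all genes. The gene called higher was again Sqstm1, at 256, 204 and 336 in knockouts against 118, 109 and 105 in controls (1.23, limma adjusted p = 0.0115). It missed the threshold without knockout 3 (1.05, adjusted p = 0.0549). The macrophage markers summed to 799 to 2394 scaled FPKM in these knockouts and 157 to 543 in the controls. Their part in the Sqstm1 level was not tested. The largest decrease was that of Pld6, a mitochondrial phospholipase linked to fusion, at 10.3, 9.38 and 8.70 in controls and 1.61, 3.52 and 1.74 in knockouts (-1.71, limma adjusted p = 0.000358). At 22 °C Pld6 read 3.20 to 4.63 in controls and 2.45 to 3.73 in knockouts. Tomm7 (-0.93), Minos1 (-0.76) and Apool (-0.67) were also lower, and so was Prkaca (-0.64, limma adjusted p = 0.0453), the catalytic subunit of the protein kinase A that phosphorylates DRP1. The Prkaca call was lost in 8 of the 14 fits that left out an animal and in 5 of 14 other settings, with adjusted p up to 0.176. Minos1 and Apool encode parts of the MICOS complex at cristae junctions. Of the 7 listed genes of cristae organisation, 5 were called lower at 30 °C, with a median of -0.48, and 0 at 22 °C, with a median of -0.20. All 7 had groups that did not overlap at 30 °C. Among all genes at 30 °C, 5.28% were called lower and 36.8% did not overlap. The summed brown adipocyte markers were lower in the same knockouts (7835 to 9579 against 14286 to 17781), and their part in these differences was not tested.

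Between temperatures, 25 of the 81 were called in controls (20 higher at 22 °C, 5 lower, median 0.11) and 42 in knockouts (39 higher, 3 lower, median 0.31). Of all genes 38.8% were called in controls (18.2% higher, 20.6% lower) and 51.1% in knockouts (21.8% higher, 29.4% lower). The medians over all genes were -0.051 and -0.072. The share of listed genes called in either direction was thus near or below that of all genes. By direction, the calls of listed genes leaned to higher at 22 °C, whereas those of all genes leaned to lower. In controls the largest increases were those of Spire1 (1.02), an actin nucleator with a mitochondrial isoform that acts in fission, Rb1cc1 (0.99), a subunit of the ULK1 complex that starts autophagosome formation, and Letm1 (0.99), an inner-membrane ion exchange protein. The largest decreases were those of Pld6 (-1.11), Src (-0.97) and Fkbp8 (-0.51), of which Src encodes a kinase that phosphorylates FUNDC1 and Fkbp8 a mitophagy receptor. In knockouts Letm1 (1.24), Chchd3 (1.09), a MICOS subunit, and March5 (1.01), an outer-membrane ubiquitin ligase, were the highest. Src (-1.43), Fkbp8 (-0.74) and Ambra1 (-0.31) were lower. Ambra1 lost its call without knockout 4 at 22 °C (-0.25, adjusted p = 0.0554). With the GC correction Fkbp8 was at -0.08 in controls and 0.16 in knockouts, and Ambra1 at 0.07 in knockouts.

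The gene whose pattern over the 14 animals was most like that of Bnip3 was Gcsh, which encodes a subunit of the mitochondrial glycine cleavage system. The root mean square difference of centred log2 values between them was 0.12. Apool and Tmem50b followed at 0.14 each. The median over all tested genes was 0.50, and Bnip3's own root mean square deviation was 0.40. These values describe likeness over the 14 libraries and carry no test.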

How the data were processed

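RNA-seq was made from brown adipose tissue of 14 mice in 4 groups, taken from the genotype and housing temperature in the labels. The authors deposited FPKM per gene and animal, normalised to gene length and depth. The submitters' processing notes name the build mm9, and the aligner, counter, annotation and use of strand are not given in the sources used here. The depth of each library, 15.9 to 21.3 M fragments, was recovered from the steps between low values of genes with 1 transcript, where 92.3 to 93.8% of values lay within 0.1 of a whole read.

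Of 35275 genes, 34490 matched GENCODE M21, used for symbols, chromosomes and transcript GC content. The filter kept 13079 genes that reached 1 FPKM in 3 or more samples. Libraries were scaled by the median ratio over 10049 nuclear genes, and log2(scaled FPKM + 1) was fitted with limma 3.58.1 (R 4.3.3, 4 group means, eBayes with trend). The pseudocount of 1 understates fold changes of low genes. Adjustment was Benjamini-Hochberg over all genes tested, at a threshold of 0.05. Animals are separate by their identifiers. Lrpprc was compared by exact permutation. The scripts were tested on simulated data. Sequence copies were searched with blastn 2.17.0, and promoters came from RefSeq (GRCm38.p6).

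The members and the lists of other genes were chosen with earlier results of these data known. All 10 members are named. Of the other listed genes, those called are named, at most 5 in each direction per knockout comparison and 3 per temperature comparison, and the 3 genes most like the member with the smallest adjusted p. Alternatives covered the pseudocount, filter, scaling, model, sample weights, a muscle score, a minimum fold change, the controls with R identifiers and each animal in turn. The GC correction (loess, span 0.3) and the sex-linked genes were chosen after the data were seen.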

Additional observations from a re-analysis of the deposited data

Results flagged for a closer look

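Mfn2 in control 4 at 22 °C stood apart from the other controls of its group, at 77.9 scaled FPKM against 134, 134 and 131. The gap to the nearest control, as a share of the range, exceeded the critical value of 0.829 for 4 samples. Among 50 groups of 4 examined over 25 genes it was the only such value. Chance gives about 1 in 20 groups, so 1 value in 50 groups is not more than chance gives. This control is among the 2 with R identifiers, and it was also the lowest of its group for Opa1, Mfn1, Mff, Pink1 and Bnip3 and the highest for Fis1. Its endothelial markers summed to 477 scaled FPKM, against 199 to 240 in the other 3.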

How the results depend on the processing

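For knockout against control, the number of members called was 0 at 22 °C and 1 at 30 °C. At 22 °C it was 2 with FPKM as deposited (Mfn2, Dnm1l), and 1 (Bnip3) with sample weights, without both controls with R identifiers, and with the GC correction. Leaving out each animal gave 0 to 1, with 1 only without control 4 at 22 °C. At 30 °C it was 2 with FPKM as deposited (Bnip3l, Fundc1), 0 with nuclear genes scaled to an equal total and 2 with sample weights (Bnip3, Mfn1). Leaving out each animal gave 0 to 1. With quantile normalization the 1 gene called was Mfn1 in place of Bnip3. Between temperatures in controls, 5 members were called. Sample weights gave 9, leaving out both R controls 9 and the GC correction 3, and leaving out each animal gave 4 to 8, with 8 only without control 4 at 22 °C. In knockouts 8 were called, against 4 with a minimum log2 fold change of 0.5, 5 with the GC correction and 6 to 9 with each animal left out. No member was called in the interaction in any fit (0). Sample weights called 213 genes there, 906 genes at 22 °C and 3652 at 30 °C, against 0, 258 and 1845, and fits to the compared groups alone called 83 and 1233 genes at 22 °C and 30 °C. Without a filter 130 genes were called at 22 °C. The equal total gave 461 genes at 22 °C. The GC correction called 3039 genes between temperatures in controls (1535 higher, 1504 lower) against 5072 (2384 higher, 2688 lower), and 3106 higher and 2353 lower in knockouts against 2850 and 3839. Quantile normalization gave 4203 higher and 2924 lower there. FPKM as deposited gave 1738 higher and 3200 lower in controls. Lrpprc at 22 °C ranged from 27.5 to 34.1% of control with an animal left out, and its exact permutation p was 0.0571 when a knockout was dropped.

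These log2 values had the opposite sign from the values reported, and the cause was not tested. At 22 °C between genotypes, FPKM as deposited gave 0.26 for Opa1, 0.22 for Mfn1, 0.16 for Fis1, 0.19 for Mff, 0.084 for Pink1, 0.12 for Bnip3l and 0.22 for Fundc1. The equal total gave 0.10 for Opa1, 0.062 for Mfn1, 0.0046 for Fis1, 0.040 for Mff and 0.077 for Fundc1, and quantile normalization 0.015 for Opa1. Sample weights gave -0.060 for Dnm1l and 0.083 for Fis1, dropping both R controls -0.14 and 0.060, and the GC correction 0.014 for Mff and 0.0046 for Fundc1. At 30 °C, FPKM as deposited gave 0.14 for Mfn2, 0.21 for Dnm1l, 0.10 for Mff and 0.21 for Pink1. The equal total gave 0.075 for Dnm1l and 0.069 for Pink1, and quantile normalization 0.15 for Pink1 and -0.036 for Fundc1. Fis1 was at -0.042 with the muscle score and -0.086 with the GC correction. In the interaction, dropping both R controls gave -0.094 for Opa1, -0.066 for Dnm1l, 0.018 for Fis1, -0.065 for Mff and -0.19 for Bnip3. Sample weights gave 0.0019 for Fis1, -0.0023 for Mff and -0.0047 for Bnip3, the muscle score -0.026 for Bnip3 and the GC correction 0.19 for Pink1. Between temperatures in controls, Mfn2 was at 0.10 with sample weights, 0.15 without both R controls and 0.097 with the GC correction, which also gave -0.00046 for Fundc1. In knockouts the GC correction gave 0.13 for Pink1, -0.074 for Fundc1, 0.16 for Fkbp8 and 0.074 for Ambra1. With each animal left out, values crossed 0 for Opa1 (-0.26 to 0.12), Dnm1l (-0.035 to 0.12) and Fundc1 (-0.13 to 0.085) at 22 °C, and for Fis1 (-0.061 to 0.18) and Pink1 (-0.20 to 0.0065) at 30 °C. They also crossed 0 for Mff (-0.0033 to 0.18) and Bnip3 (-0.029 to 0.19) in the interaction and for Mfn2 (-0.12 to 0.14) between temperatures in controls. No paired analysis was possible because animals carry individual identifiers and no shared replicate numbers. Groups of 3 or 4 animals limit precision. Among the members counting error was largest for Fundc1, with about 290 to 496 fragments a library, though small at that level.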
